A study of Homo sapiens with 8 samples.

Results

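Aminoacyl-tRNA synthetases load each tRNA with its amino acid. The set described here held 20 cytosolic synthetase genes, 16 mitochondrial ones (symbols ending in 2), the synthetase cofactors AIMP1 and AIMP2 and the tRNA exporter XPOT. They were taken by gene symbol, and all 39 were found among the 16782 genes of the table. RNA of CAKI1 cells, an established human renal carcinoma line, was sequenced in 4 unstimulated control samples and in 4 samples stimulated with holo-Lcn-2 (hLcn-2, lipocalin-2 loaded with iron) at 5 µg/mL for 24 h. Cells of both groups had been serum starved for 24 h before stimulation. A single cell line was used, and the labels do not say whether the samples came from separate cultures, so p-values measure only the spread between these samples. The samples carry the numbers 1 to 4 in both groups.

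Cytosolic synthetases serve the ribosomes of the cytosol, whereas the mitochondrial enzymes are encoded in the nucleus and imported to charge the tRNAs of the mitochondrial genome. GARS and KARS are counted as cytosolic here but are known to serve both compartments. Several cytosolic synthetases are assembled, with AIMP1 and AIMP2, into a multisynthetase complex. When amino acids run short, uncharged tRNA activates a kinase of the integrated stress response (ISR), and the transcription factor ATF4 that is then made is known to activate many genes of amino acid transport and charging, synthetase genes among them. ATF4 binds together with C/EBP factors to an element built around the letters TGATGCAA.

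These letters were searched in the promoters of the set, to see which synthetase genes carry them near their RefSeq start. RefSeq promoters (GRCh38.p14, 250 bases before to 50 after the start) were matched for 16 of the 20 cytosolic and 14 of the 16 mitochondrial genes. TGATGCAA, on either strand, was found in 6 of the 16 cytosolic promoters (37.5%), in 0 of the 14 mitochondrial ones, and in 304 of all 35116 promoters (0.866%). The looser form TGATGNAA, which contains the first, was found in the same number of cytosolic promoters (6), in 1 mitochondrial promoter, that of YARS2, and in 3.62% of all. A window of 30 bases around each match in a cytosolic promoter is given on the strand of the gene, with the match in capitals (TTGCATCA is TGATGCAA on the other strand).
IARS, chr9:92293692-92293721, minus strand: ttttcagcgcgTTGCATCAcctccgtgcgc
AARS, chr16:70289675-70289704, minus strand: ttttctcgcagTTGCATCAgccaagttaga
MARS, chr12:57488053-57488082, plus strand: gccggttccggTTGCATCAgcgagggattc
CARS, chr11:3057407-3057436, minus strand: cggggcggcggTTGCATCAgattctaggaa
TARS, chr5:33440956-33440985, plus strand: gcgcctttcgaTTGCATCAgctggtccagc
NARS, chr18:57621804-57621833, minus strand: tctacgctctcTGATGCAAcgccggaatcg
Counted from the annotated start as 0, the match began between positions -13 and 14 in IARS, MARS, CARS, TARS and NARS, and at -187 in AARS. A match is a run of letters in this window and does not show that a factor was bound.

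The libraries read the 3′ end of each transcript and held between 1501563 and 13953090 reads, with a median of 9216758 in controls and 5796022 after hLcn-2. Control 4 and hLcn-2 sample 3, with 2088266 reads, were the shallowest. Values are the deposited normalized counts on the CPM scale (reads scaled to an adjusted library size). They were not divided by transcript length. Levels, and sums or ratios of genes, are compared between samples and not between genes. Of 10 markers of renal carcinoma epithelium, 8 were in the table, and KRT19 and CA9 were not. The renal transcription factor PAX8 lay between 201 and 245 CPM in all samples. CDH6, KRT8, KRT18, VIM and EPCAM had at least 19.5 CPM in every sample. PAX2 was low, with up to 5.29 CPM, and CDH16 had up to 10.8 CPM. Of 6 markers of leukocytes, endothelium and fibroblasts, 2 were in the table, COL1A1 with up to 6.58 CPM and PDGFRB with up to 1.83 CPM. PTPRC, CD68, PECAM1 and VWF were not in it. Limma was fitted on log2(normalized count + 1) over 15593 genes, those that reached 1 CPM in 2 or more samples, and its two-sided p-values were adjusted by Benjamini-Hochberg. Log2 fold changes are on this scale, which understates changes of genes with few reads. All 39 genes passed this filter. A lower value in such bulk RNA can mean fewer cells with the transcript or less RNA per cell, which cannot be told apart. For 13 of the 39 genes, AARS, WARS and XPOT among them, the annotation names pseudogenes, and reads shared with these copies could not be resolved.

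Among the cytosolic synthetases, IARS, WARS and AARS had the largest log2 fold changes, and the exporter XPOT had one of similar size. When limma ignored the sample numbers, 0 of the 39 genes and 0 of all 15593 (0.0%) passed an adjusted p-value of 0.05, which holds for every gene described here. Standard errors given below are from this fit unless stated otherwise. At an unadjusted p-value under 0.05 there were 4 genes of the set (AARS, IARS, WARS and XPOT) and 355 of all genes (2.28%). The quasi-likelihood test of edgeR on the reads also called 0 genes without the numbers (324 at an unadjusted p under 0.05), as did DESeq2 (284). Samples of the same number deviated together from their group means (mean correlation across genes 0.50), so blocking by this number was tried as well, in limma, edgeR and DESeq2. With this block, limma called IARS and XPOT (0.282% of all genes called, 0.218% as higher and 0.0641% as lower), and edgeR called IARS, XPOT, AARS and WARS (1.49% of all genes, 1.12% as higher and 0.372% as lower). All of these were higher after hLcn-2. DESeq2 with the block also called these 4, where 1.11% of all genes were called, 0.84% as higher and 0.269% as lower. No mitochondrial synthetase was called in any of these fits, although DESeq2 gave no adjusted p-value for AARS2, PARS2 and AIMP2.

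**Figure D1:**
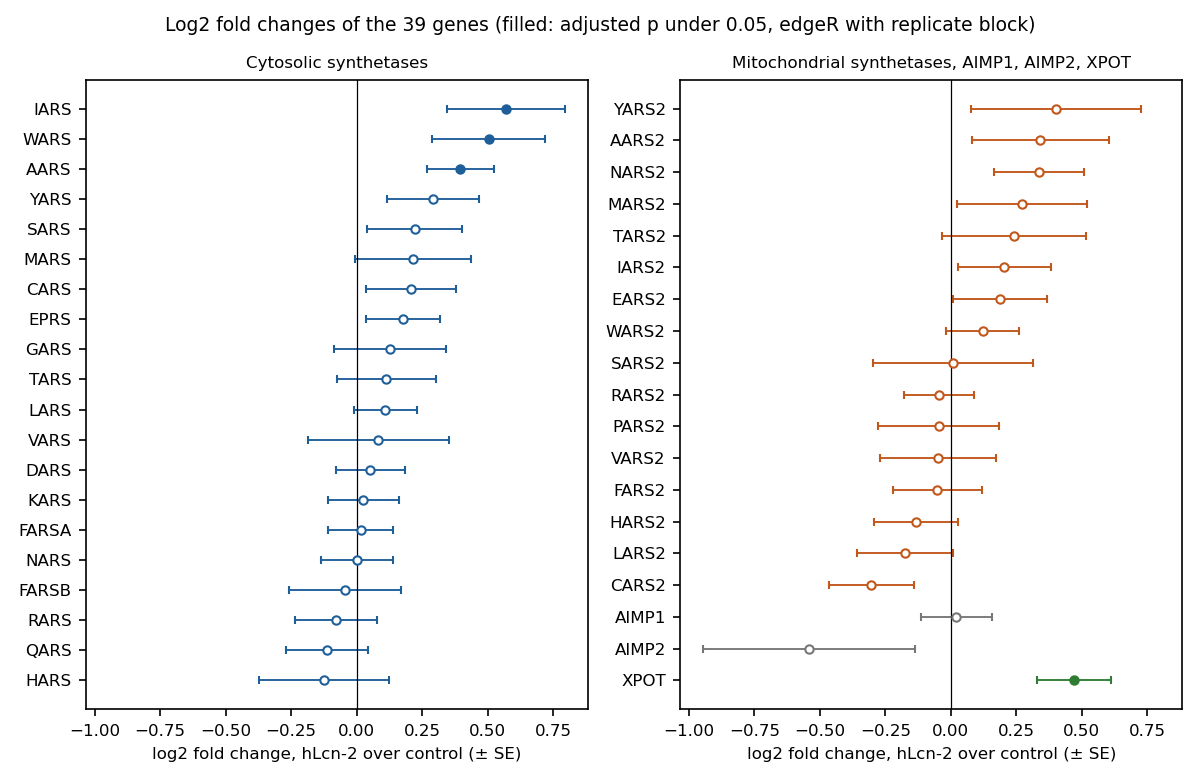
Log2 fold changes of the 39 genes between hLcn-2 and control samples (x axis, limma, bars: standard error without the replicate block, n = 4 per group). Cytosolic synthetases are in blue, mitochondrial ones in orange, cofactors in grey and XPOT in green. Filled points, those of IARS, WARS, AARS and XPOT, had an adjusted p-value under 0.05 in edgeR with the replicate block.

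IARS charges tRNA with isoleucine and is part of the multisynthetase complex. Its gene spans 92210207 to 92293854 of chromosome 9 (GRCh38, minus strand). IARS had 107, 130, 67.5 and 64.5 normalized counts (CPM) in controls 1 to 4, and 151, 155, 119 and 107 in hLcn-2 samples 1 to 4. Controls 3 and 4 were the low ones, and control 2 lay above hLcn-2 samples 3 and 4, so the groups overlapped. Within each of the 4 same-numbered pairs IARS was higher after hLcn-2, by 0.49, 0.25, 0.81 and 0.72 on the log2 scale. Its log2 fold change was 0.57 (standard error 0.23), which is 1.48-fold. Blocked limma gave an adjusted p-value of 0.0373 and blocked edgeR one of 0.00792, whereas an exact permutation of the unpaired groups (two-sided, 70 regroupings) gave p = 0.114. With any same-numbered pair left out, limma with the block no longer called IARS (adjusted p of 0.0570 without pair 1, 0.0853 without pair 2, 0.176 without pair 3 and 0.0627 without pair 4). In edgeR with the block it lost the call only without pair 3 (adjusted p = 0.0610).

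AARS charges tRNA with alanine and spans 70251983 to 70289707 of chromosome 16 (minus strand). Its normalized counts (CPM) were 196, 199, 216 and 183 in controls 1 to 4, and 232, 296, 240 and 283 in the hLcn-2 samples. The lowest hLcn-2 sample exceeded the highest control (two-sided exact permutation p = 0.0286, and 4 against 4 samples allow no smaller one). Such separation upwards was seen for 1 of the 20 cytosolic genes, AARS, and for 0.891% of all genes. In either direction the groups were separate for 1.88% of all genes, and for 3 of the 39 described here, AARS, XPOT and CARS2. The controls of AARS had the smallest spread of all cytosolic synthetases, 6.91% of their mean. The log2 fold change of AARS was 0.40 (standard error 0.13). AARS missed the threshold in blocked limma (adjusted p = 0.0934) and passed it in blocked edgeR (adjusted p = 0.0266). The edgeR call was lost without pair 2 (adjusted p = 0.272) and without pair 4 (0.0614).

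WARS, the tryptophanyl-tRNA synthetase, is also known as an interferon-induced gene. It had 36.2, 47.6, 39.3 and 31.6 normalized counts (CPM) in controls 1 to 4, and 52.3, 76.1, 36.5 and 61.3 after hLcn-2. The samples with the number 3 differed from the others, since hLcn-2 sample 3 lay below its control, while the other pairs were higher by 0.52, 0.66 and 0.93 on the log2 scale. The log2 fold change was 0.50 (standard error 0.22), and the groups overlapped (two-sided exact permutation p = 0.0857). WARS missed the threshold in blocked limma (adjusted p = 0.168) and passed it in blocked edgeR (adjusted p = 0.0332), a call that was lost without pair 1 (0.0954), pair 2 (0.297) or pair 4 (0.0785). Without pair 3 the adjusted p-value in edgeR was 0.0134. An unnamed gene on the opposite strand overlaps the last 500 nt of WARS, and whether reads were counted by strand is not given in the sources used here, so its part in the values was not tested.

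XPOT carries tRNA out of the nucleus. It spans 64404392 to 64451125 of chromosome 12 (plus strand), and no annotated exon of another gene overlaps its canonical transcript. XPOT had 69.8, 78.3, 66.1 and 60.6 normalized counts (CPM) in controls 1 to 4, and 101, 109, 92.3 and 80.9 in the hLcn-2 samples. The lowest hLcn-2 sample was above the highest control (two-sided exact permutation p = 0.0286). The differences within the 4 pairs were close to each other, with 0.53, 0.47, 0.48 and 0.41 on the log2 scale. Its log2 fold change was 0.47 (standard error 0.14), or 1.39-fold. XPOT passed the threshold in blocked limma (adjusted p = 0.0400) and in blocked edgeR (adjusted p = 0.00792). In limma with the block the call was lost without pair 1 (0.122), pair 2 (0.222) or pair 3 (0.147), and in edgeR without pair 1 (0.0544) or pair 2 (0.0766). On reads thinned to equal depth, blocked limma did not call XPOT (adjusted p = 0.0538) and called IARS and AARS. Of 5 other nuclear exportins, XPO1, XPO4, XPO5, XPO6 and XPO7, 0 were called in any of the fits named. No TGATGNAA was found in the promoter of XPOT or of WARS.

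**Figure D2:**
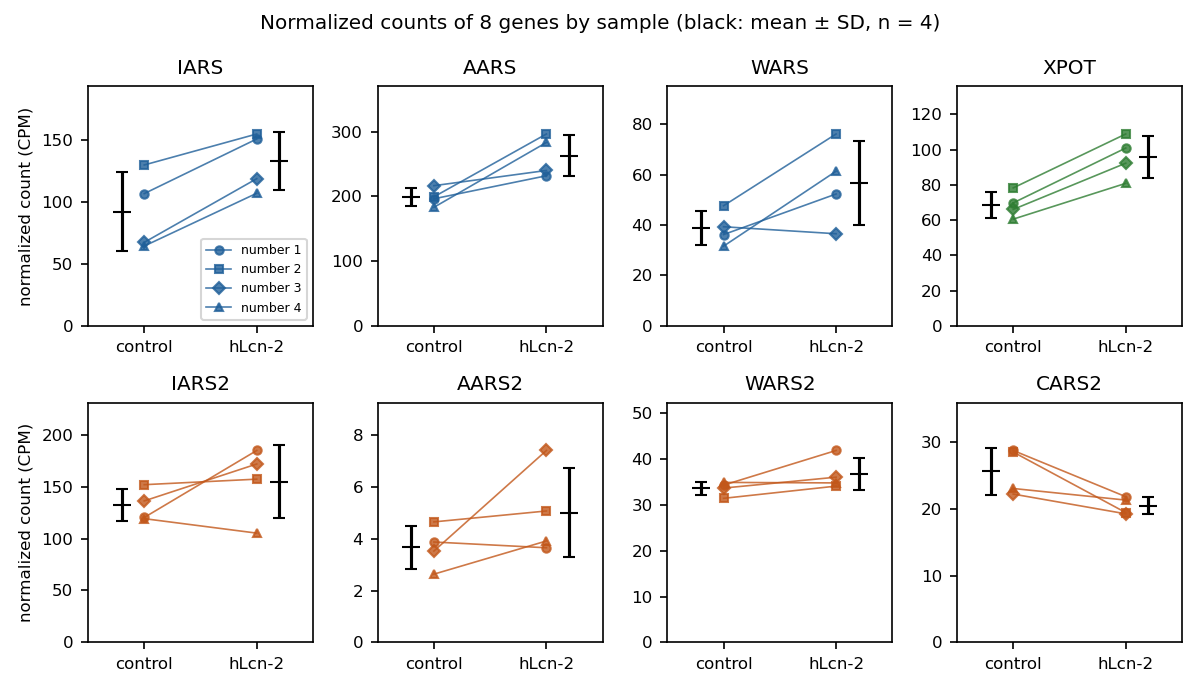
Normalized counts (CPM, y axes from 0) of IARS, AARS, WARS, XPOT, IARS2, AARS2, WARS2 and CARS2 in each control and hLcn-2 sample, with lines joining samples of the same number and black marks for the mean and SD (n = 4). XPOT and AARS lie higher in every hLcn-2 sample than in any control, and CARS2 lower.

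The other 17 cytosolic synthetases were not called in any of the fits named. Of all 20 cytosolic genes, 16 had a log2 fold change above 0 and 4 below it, and 50.2% of all genes tested were above 0. On plain CPM, KARS, FARSA and NARS lay below 0. The median of the 20 was 0.11, against 0.00083 for all genes tested. In all 4 pairs 7 of the 20 were higher, namely IARS, AARS, YARS, MARS, EPRS, TARS and LARS, which is 35% against 9.93% of all genes, and 0 were lower in all 4 (10.9% of all genes). Without control 3 the median was 0.0079, and without hLcn-2 sample 3 it was 0.21. It was also moved by over 1.5 times without control 2 (0.20), hLcn-2 sample 2 (0.063) or hLcn-2 sample 4 (0.043).

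YARS, for tyrosine, followed the 3 called genes with a log2 fold change of 0.29 (standard error 0.17). Its normalized counts (CPM) were 128, 138, 91.7 and 103 in controls and 139, 165, 107 and 154 after hLcn-2. Each hLcn-2 sample of YARS was above its own control, but the groups overlapped (edgeR with the block, adjusted p = 0.135). EPRS, whose protein charges both glutamate and proline tRNAs, averaged 473 ± 46.0 CPM without and 538 ± 76.6 CPM with hLcn-2 (SD, n = 4 each). MARS, for methionine, averaged 73.6 ± 18.6 and 85.5 ± 20.4 CPM (SD, n = 4 each), and its last 500 nt overlap DDIT3, a gene of the ISR on the opposite strand, whose part in these values was not tested. LARS and TARS, for leucine and threonine, had log2 fold changes of 0.11 and 0.11. These were less than their standard errors without the block (0.12 and 0.19) and more than those with it (0.078 and 0.073).

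SARS (serine) and GARS (glycine) were above their controls mainly in pair 4, by 0.77 and 0.54 on the log2 scale. In the other pairs, SARS and GARS differed by at most 0.17 in either direction. CARS (cysteine) was higher in pair 4 by 0.60 and in pair 2 by 0.41, and lower in pairs 1 and 3. VARS (valine), DARS (aspartate), KARS (lysine), FARSA (the alpha subunit for phenylalanine) and NARS (asparagine) had log2 fold changes from 0.0023 for NARS to 0.083 for VARS. Those of FARSB (the beta subunit), RARS (arginine), QARS (glutamine) and HARS (histidine) were -0.044, -0.080, -0.11 and -0.12. Each was below 1 standard error without the block, and with the block RARS exceeded its standard error of 0.075. HARS was the cytosolic synthetase with the fewest reads, 19 in the shallowest case, and its last 500 nt overlap WDR55 on the opposite strand.

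The cytosolic genes were also divided by membership of the multisynthetase complex and by the letters TGATGCAA in their promoters. The list of the complex was chosen with earlier results of these data known, and the split by letters was not among the planned results. The 8 cytosolic members of the multisynthetase complex had a median log2 fold change of 0.081, with 6 above 0 and 4 higher in all 4 pairs. The 12 outside the complex had a median of 0.12, with 10 above 0 and 3 higher in all 4 pairs. EEF1E1, another accessory protein of the complex, averaged 152 ± 20.6 CPM without and 155 ± 34.9 CPM with hLcn-2 (SD, n = 4 each). The 6 genes with TGATGCAA had log2 fold changes of 0.57 for IARS, 0.40 for AARS, 0.21 for MARS, 0.21 for CARS, 0.11 for TARS and 0.0023 for NARS. Their median was 0.21, and that of the 10 with a promoter but without these letters was 0.020, with a range from -0.12 for HARS to 0.50 for WARS. In all 4 pairs, 4 of the 6 (66.7%) and 1 of the 10 were higher, against 9.93% of all genes. DARS, LARS, VARS and YARS had no matched promoter and are in neither group. Of these, LARS and YARS were also higher in all 4 pairs. With 1 library left out, MARS had 0.049 without control 3 and 0.40 without hLcn-2 sample 3, CARS 0.10 without hLcn-2 sample 4 and 0.33 without hLcn-2 sample 1, and TARS -0.042 without control 3. These are descriptions of few genes, and no test was made of the difference.

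AIMP1 and AIMP2 are the scaffold proteins of the complex. AIMP1 had 104, 111, 97.3 and 86.9 normalized counts (CPM) in controls 1 to 4, and 93.4, 108, 89.9 and 113 after hLcn-2. Its values did not separate the groups (log2 fold change 0.021, standard error 0.13). AIMP2 was near the limit of these libraries, with 1.83, 3.75, 3.35 and 1.32 in controls and 1.78, 2.68, 0 and 1.96 after hLcn-2. The 0 in hLcn-2 sample 3 allows up to 1.48 CPM, the worth of 3 reads in that library, so the log2 fold change of -0.54 (standard error 0.40) rests on few reads. It ranged from -1.27 to -0.20 over the alternatives on all samples and from -0.84 to -0.014 with samples left out, with -0.13 without hLcn-2 sample 3. The last 500 nt of AIMP2 overlap EIF2AK1 on the opposite strand, and the part of this overlap in the low values was not tested.

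Among the mitochondrial synthetases, 9 of 16 log2 fold changes were above 0 and 7 below it, with a median of 0.064. Higher in all 4 pairs were 2 of the 16, NARS2 and TARS2 (12.5%, against 9.93% of all genes), TARS2 having a value below 0 on thinned reads (-0.093), and lower in all 4 was 1, CARS2 (10.9% of all genes were). These shares are near those of all genes. The median moved to 0.015 without control 2, 0.028 without hLcn-2 sample 4, 0.15 without hLcn-2 sample 2 and 0.12 without hLcn-2 sample 3, and it was 0.041 without hLcn-2 sample 1.

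CARS2, the mitochondrial cysteinyl-tRNA synthetase on chromosome 13 (110641412 to 110713603, minus strand), was the only mitochondrial gene of the set whose groups did not overlap. It had 28.7, 28.5, 22.2 and 23.0 normalized counts (CPM) in controls 1 to 4, and 21.8, 19.4, 19.3 and 21.3 after hLcn-2. All hLcn-2 samples lay below the lowest control (two-sided exact permutation p = 0.0286), as was the case for 0.988% of all genes. The log2 fold change was -0.30 (standard error 0.16), and CARS2 missed the threshold in every fit (adjusted p = 0.356 in blocked limma and 0.199 in blocked edgeR). Its cytosolic counterpart CARS had 229, 268, 267 and 239 in controls and 223, 358, 243 and 362 after hLcn-2, so CARS was above the controls in samples 2 and 4 only. The ratio of CARS to CARS2 within a sample was 7.98 to 12.0 in controls and 10.2 to 18.4 after hLcn-2.

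The mitochondrial genes with the largest log2 fold changes were YARS2, AARS2 and NARS2, of which 0 were called. YARS2 (tyrosine) had 15.6, 20.3, 10.2 and 5.27 normalized counts (CPM) in controls and 15.9, 16.3, 12.8 and 17.6 after hLcn-2. Its log2 fold change of 0.40 (standard error 0.33) went with a low control 4, which held 8 reads of this gene, and in the other pairs it differed by -0.30 to 0.30. AARS2 (alanine) had 3.87, 4.65, 3.53 and 2.63 in controls and 3.65, 5.07, 7.41 and 3.91 after hLcn-2, where sample 3 was the high one, and as few as 4 reads in a sample. NARS2 (asparagine) had 14.7, 19.4, 17.8 and 20.4 in controls and 23.5, 25.6, 19.7 and 23.3 after hLcn-2. NARS2 was higher in each of the 4 pairs, with a log2 fold change of 0.34 (standard error 0.17), but hLcn-2 sample 3 lay below control 4 (two-sided exact permutation p = 0.0571, adjusted p = 0.133 in blocked edgeR).

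The counterparts of the other called genes were IARS2 and WARS2. IARS2 (isoleucine) had 120, 152, 136 and 119 normalized counts (CPM) in controls and 185, 157, 172 and 105 after hLcn-2. Its hLcn-2 values spanned those of the controls (log2 fold change 0.20, standard error 0.18, and 0.068 to 0.38 with samples left out). WARS2 (tryptophan) had 34.3, 31.4, 33.7 and 34.9 in controls and 41.9, 34.1, 36.0 and 34.8 after hLcn-2, and only hLcn-2 samples 1 and 3 lay above all controls. The other mitochondrial genes had log2 fold changes between -0.18 for LARS2 (leucine) and 0.27 for MARS2 (methionine). HARS2 and HARS, whose gene bodies share 108 bases at their starts on chromosome 5 and point away from each other, had similar values of -0.13 and -0.12. The last 500 nt of HARS2 overlap ZMAT2 on the same strand, and those of SARS2 and VARS2 overlap unnamed genes on the same strand. The part of these overlaps in the values was not tested.

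**Figure D3:**
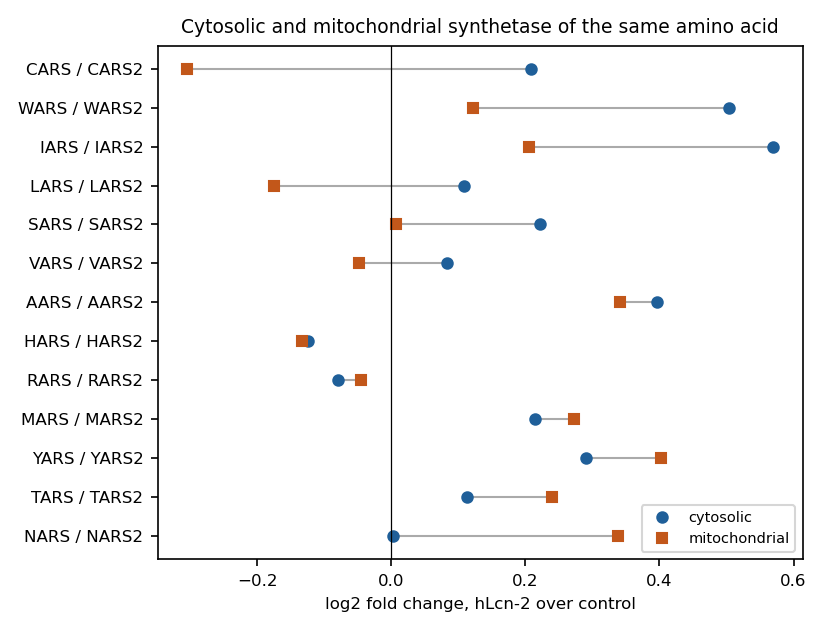
Log2 fold change (x axis, limma) of the cytosolic (blue circles) and mitochondrial (orange squares) synthetase for the same amino acid, for 13 gene pairs ordered by the difference. The cytosolic gene had the larger value in 8 pairs, with CARS and CARS2 farthest apart, and the mitochondrial one in 5, with NARS and NARS2 at the other end.

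Both classes were then compared as a whole. For 13 amino acids with a separate gene in both compartments, the cytosolic log2 fold change was the larger in 8 and the mitochondrial in 5. It exceeded its counterpart by 0.51 for CARS, 0.38 for WARS and 0.36 for IARS, and was lower by 0.34 for NARS. Summed over the class, cytosolic synthetases had 4049, 4528, 3475 and 4002 CPM in controls 1 to 4, and 4189, 4897, 3695 and 4774 after hLcn-2. The sum was higher in each pair, although the groups overlapped. Mitochondrial synthetases summed to 429, 457, 422 and 423 CPM in controls and 509, 452, 469 and 422 after hLcn-2, with higher values in pairs 1 and 3 only. The ratio of the sums, which does not depend on the scaling of a library, was 9.43, 9.90, 8.23 and 9.45 in controls and 8.23, 10.8, 7.88 and 11.3 after hLcn-2. It was lower after hLcn-2 in pairs 1 and 3 and higher in pairs 2 and 4. The order of the class medians also turned with the tool, since edgeR without the block gave 0.12 for the cytosolic and 0.15 for the mitochondrial genes.

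**Figure D4:**
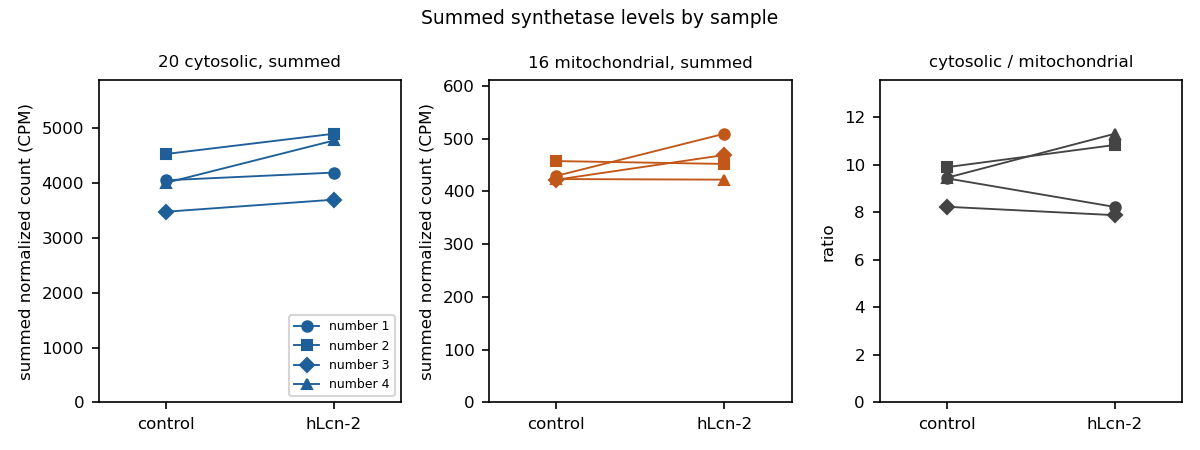
Summed normalized counts (CPM, y axes from 0) of the 20 cytosolic and 16 mitochondrial synthetases and the ratio of both sums in each sample, with lines joining samples of the same number. The cytosolic sum is higher after hLcn-2 in all 4 pairs, whereas the ratio is higher in 2 and lower in 2.

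The same sample numbers were often the lowest or the highest of both groups for the cytosolic genes. Such counts were not made over all genes. Control 3 was the lowest control for 14 of the 20 cytosolic genes and hLcn-2 sample 3 the lowest of its group for 13, whereas control 2 was the highest control for 14 and hLcn-2 sample 2 the highest for 11. Among the 16 mitochondrial genes, control 3 was the lowest control for 3 and hLcn-2 sample 3 the lowest of its group for 7, and control 2 and hLcn-2 sample 2 were the highest for 5 and 3. The difference between the classes was not tested. The coefficient of variation among controls was 14.0% in the median of cytosolic and 15.7% in that of mitochondrial genes, and reached 34.4% for IARS and 50.8% for YARS2. Pair by pair, the median log2 difference of the cytosolic genes was 0.024, 0.042, 0.14 and 0.29 in pairs 1 to 4, with 13, 14, 14 and 15 of the 20 higher after hLcn-2. For the mitochondrial genes it was 0.028, 0.016, 0.034 and 0.088, with 11, 9, 8 and 8 of the 16 higher. Over all 15593 genes tested it was -0.016, 0.0076, -0.045 and 0.038, with 7468, 7999, 6977 and 8263 higher. Pair 4 holds control 4, the shallowest library.

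**Figure D5:**
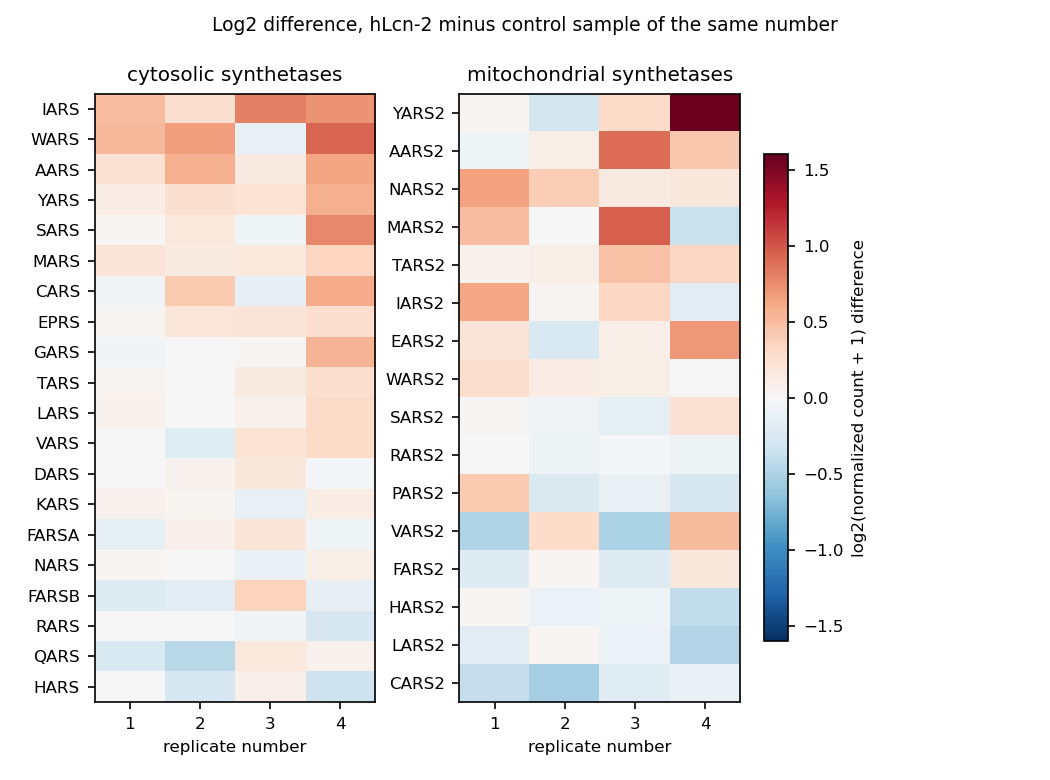
Difference in log2(normalized count + 1) between the hLcn-2 and control sample of the same number (columns 1 to 4) for each cytosolic and mitochondrial synthetase, ordered by log2 fold change, with red for higher and blue for lower after hLcn-2. IARS and AARS are red in all 4 columns, CARS2 is blue in all 4, and YARS2 in pair 4 has the largest difference, 1.57.

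Other genes of tRNA handling were counted by list, as for the synthetases. Of 12 genes of tRNA end processing, splicing and editing, 1 was called with the block, TSEN15, a subunit of the tRNA splicing endonuclease. It had 64.4, 72.6, 62.4 and 46.8 normalized counts (CPM) in controls and 121, 114, 86.4 and 60.9 after hLcn-2, and was higher in all 4 pairs. Its log2 fold change was 0.59 (standard error 0.22), and it passed the threshold in blocked limma (adjusted p = 0.0372) and blocked edgeR (adjusted p = 0.00294). Limma with the block lost the call of TSEN15 without pair 1 (0.111), pair 2 (0.201) or pair 3 (0.106), and edgeR kept it without any pair. Of 4 subunits of elongation factor 1 in the table, 4 genes of the mitochondrial amidotransferase and of tRNA formylation, and 2 genes of selenocysteine tRNA, 0 were called. Of 8 genes of the ISR, 4 were called by edgeR with the block, all higher (1.49% of all genes were called, 1.12% as higher), and 2 by limma with the block (PSAT1 and CHAC1, where 0.282% of all genes were called). The called genes were ASNS, PSAT1, CHAC1 and SESN2, with log2 fold changes of 0.78, 0.50, 0.71 and 0.63. Not called were ATF4 (0.19), TRIB3 (0.16), DDIT3 (0.36, but 0.14 in edgeR with the block) and PPP1R15A, which was lower (-0.23). Without pair 2, edgeR with the block no longer called ASNS (adjusted p = 0.0516), PSAT1 (0.0502) or SESN2 (0.136). Limma with the block lost PSAT1 without pair 1 (0.0939), pair 2 (0.191) or pair 3 (0.0852) and on thinned reads (0.0859). It lost CHAC1 without pair 2 (0.0988) or pair 3 (0.0852).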

How the data were processed

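RNA of 8 CAKI1 samples was prepared with the QuantSeq 3′ kit with UMI. After alignment to GRCh38 with STAR, the authors collapsed reads by UMI, took HTSeq counts and dropped genes at 0 throughout. They deposited a scaled signal, normalized counts on the CPM scale of an adjusted library size. All values (134256 of 134256) were whole multiples of what 1 read is worth in their library (tolerance 1e-06 reads), which gave reads for edgeR 4.0.16 and DESeq2 1.42.0. One value with a decimal comma was read as a decimal point. Precision is limited by depth (1501563 to 13953090 reads), and the floor of 3 reads covers counting error only.

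Limma 3.58.1 in R 4.3.3 was run with an intensity trend on log2(normalized count + 1) over 15593 genes, without and with the replicate number as a block. The numbers pair the samples, as same-numbered samples deviated together (correlation across genes 0.31 to 0.61, at most 0.23 for other pairings). Positions are from GENCODE 44. The fits were tested on simulated data. Members and lists were chosen with earlier results of these data known. Values by sample are given for members called or without overlap, the 3 of largest change per class, AIMP1, AIMP2, XPOT and counterparts. CARS and YARS were added after their values were seen, and TSEN15, the 1 call of its list, is named for that reason. Alternatives were other pseudocounts, filters, scalings, tools, thinned reads and left-out samples. Leaving out pairs in edgeR was added after seeing the data.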

Additional observations from a re-analysis of the deposited data

Results flagged for a closer look

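Dixon's test, at the 95% level, was applied to each of the 39 genes in both groups, which makes 78 groups of 4 samples, and chance alone marks about 1 in 20 of such groups (3.9 of 78). In 3 of them 1 sample stood apart, each time hLcn-2 sample 3, which was lower than the other hLcn-2 samples. It had 163 CPM for KARS, 229 CPM for LARS and 474 CPM for TARS, and its gap to the next sample was 0.933, 0.841 and 0.845 of the whole range of the group. Control 3 was likewise the lowest control for TARS, with 431 CPM, and for KARS, with 177 CPM, but not for LARS. With 2088266 reads, hLcn-2 sample 3 was the shallowest library of its group, whereas control 3, with 5799151 reads, was not the shallowest control. Both number 3 samples had the largest share of the mitochondrial rRNA RNR2. It was 6.22% in control 3 and 7.10% in hLcn-2 sample 3, against 3.31% to 4.37% in the other samples. The part of depth or of this share in these values was not tested.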

How the results depend on the processing

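With the replicate number as a block, limma called 44 genes, edgeR 233, DESeq2 173, and limma on reads thinned to equal depth 69, where the fit without the block called 0. The corresponding counts of cytosolic synthetases were 1, 3, 3 and 2, and 0 mitochondrial synthetases were called in any of the alternatives run. With 1 library or 1 same-numbered pair left out, 0 to 221 genes and 0 to 2 cytosolic synthetases were called. With the block, limma called 14, 3, 0 and 58 genes without pairs 1, 2, 3 and 4, and edgeR 66, 56, 125 and 221, the latter chosen after seeing the data. The block changed no call among the 39 genes other than IARS, AARS, WARS and XPOT. The median log2 fold change of the mitochondrial genes was 0.15 in edgeR without the block, 0.13 in DESeq2 without it and 0.014 on thinned reads, and 0.0044 to 0.17 with samples left out. Some small log2 fold changes changed sign. On plain CPM this held for FARSA (-0.016), KARS (-0.0062), NARS (-0.029), SARS2 (-0.022) and AIMP1 (-0.011). On thinned reads with the block it held for FARSB (0.068), NARS (-0.016), FARS2 (0.019), PARS2 (0.0093), RARS2 (0.049), SARS2 (-0.0049), TARS2 (-0.093), WARS2 (-0.010) and AIMP1 (-0.0030). PARS2 had 0.047 in edgeR, 0.051 in DESeq2 and 0.062 in edgeR with the block. With samples left out, the range was -0.0037 to 0.14 for DARS, -0.047 to 0.079 for FARSA, -0.27 to 0.061 for FARSB, -0.0099 to 0.29 for GARS, -0.30 to 0.016 for HARS, -0.030 to 0.13 for KARS, -0.056 to 0.094 for NARS, -0.19 to 0.020 for RARS, -0.042 to 0.26 for TARS and -0.16 to 0.28 for VARS. It was -0.13 to 0.0016 for FARS2, -0.24 to 0.17 for PARS2, -0.095 to 0.0033 for RARS2, -0.26 to 0.20 for SARS2, -0.26 to 0.14 for VARS2, -0.045 to 0.66 for YARS2 and -0.098 to 0.078 for AIMP1. The causes of these changes were not tested. IARS, AARS, WARS and XPOT stayed above 0 and CARS2 below 0 in all alternatives run. CARS, EPRS, LARS, MARS, SARS, YARS, AARS2, EARS2, IARS2, MARS2 and NARS2 also stayed above 0. QARS, HARS2, LARS2 and AIMP2 stayed below 0, so a steady sign was not particular to the called genes. Depth limits AIMP2 and AARS2 most, with 0 and 4 reads in the shallowest case.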
